A study of Homo sapiens with 16 samples.

Results

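The 31 genes described here are known as activated by EWSR1-FLI1, the fusion protein of Ewing sarcoma. They were chosen by symbol as established targets, out of 39249 genes in the tables, and each was found as 1 row. The fusion joins the activation domain of EWSR1 to the DNA-binding domain of the ETS factor FLI1. The fusion binds repeats of the sequence GGAA, turns them into enhancers and switches on genes that the unfused FLI1 does not control, while it holds other genes down. The histone demethylase LSD1 (gene KDM1A) is part of the complexes through which the fusion acts, and SP-2509 is an inhibitor of LSD1. No group was designed to remove the fusion, and whether each gene depends on it in these cells was not tested here.

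Poly(A) RNA came from the Ewing sarcoma cell line A673, unmodified, and from 3 monoclonal A673 derivatives in which MRPL45 (a component of the mitochondrial ribosome), CYC1 or UQCRFS1 (both subunits of respiratory complex III) had been knocked out (MRPL45-KO, CYC1-KO and UQCRFS1-KO cells). Each line was kept for 48 h in medium with 500 nM SP-2509 or with 0.1% DMSO, its solvent, which gave 8 groups of 2 libraries and 16 libraries in all. Each knockout line is a single clone, so an effect of the knockout and a trait of the clone cannot be told apart. Whether the 2 libraries of a group stem from separate cultures is not stated, and the p-values therefore cover only their spread, which may be technical.

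Library totals ran from 24873597 to 56171036 counts, with the 2 smallest in MRPL45-KO cells. No replicate pair agreed within sampling noise (chi-square per degree of freedom of at least 23.2). The 6 Ewing sarcoma markers looked at (CD99, FLI1, NKX2-2, NR0B1, STEAP1 and LIPI) were at 38.4 CPM (reads scaled to a common library size) or more in every library. The markers of other cell types reported here (PTPRC, EPCAM, CDH1, VWF and MYOD1) were at 0.99 CPM or less, with PTPRC, CDH1, VWF and MYOD1 at 0 in at least 1 library. CYC1 with DMSO stood at 71.1 and 74.4 CPM in CYC1-KO cells against 290.4 and 280.4 CPM in A673, and UQCRFS1 at 58.6 and 60.9 CPM in UQCRFS1-KO cells against 102 and 98.6 CPM in A673. With SP-2509 UQCRFS1 rose in its own knockout line to 88.2 and 77.8 CPM (log2 fold change 0.47 ± 0.06), against 116 and 119 CPM in A673, while CYC1 in CYC1-KO cells was at 78.9 and 82.2 CPM. These are transcript levels and not protein. MRPL45 was not analysed here, so the label of that line was not checked against its targeted gene.

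All 31 genes passed the filter on low counts, and 30 of them had a mean of at least 5 CPM. Set per kilobase of exon, so that genes could be compared with each other, the level in A673 with DMSO was highest for CAV1 (516 CPM per kilobase), the cell cycle gene CCND1 (377), UGT3A2 (263) and ITM2A (208). It was lowest for TERT (1.38 CPM per kilobase), LOXHD1 (1.66) and SOX6 (2.39). The length joins all annotated exons of a gene, 19636 bases for SOX6, and can exceed that of the transcripts made. The ranking is therefore approximate. Across the 16 libraries the highest level of a gene in CPM was between 1.58 times (STEAP2) and 8.74 times (GLI1) its lowest.

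Whether SP-2509 moves these genes, with and without the mitochondrial genes, was read from 4 comparisons with DMSO. In A673, 26 of the 31 genes were called at an adjusted p under 0.05 in the edgeR quasi-likelihood test, 17 higher and 9 lower, where 58.0% of all 21633 tested genes were called (31.6% higher and 26.4% lower). Among the 10597 genes whose mean reached 5 CPM, which is the range of these genes, 77.4% were called, 49.6% higher and 27.8% lower. The share of the 31 genes called in A673 was 83.9%. In MRPL45-KO cells 7 rose and 2 fell, beside a background of 18.5% called (10.4% higher and 8.08% lower). In CYC1-KO cells 15 rose and 7 fell, beside 33.4% (18.7% and 14.7%); 14 genes were called there without DMSO replicate 1 and 14 without SP-2509 replicate 1. In UQCRFS1-KO cells 19 rose and 9 fell, beside 54.7% (29.6% and 25.1%). Above the same floor of 5 CPM the background was 31.4% (18.2% and 13.2%) in MRPL45-KO cells, 52.7% (30.5% and 22.2%) in CYC1-KO cells and 76.2% (46.6% and 29.6%) in UQCRFS1-KO cells. The 9 calls in MRPL45-KO cells, 29.0% of the genes, were near that second background, and the 26 calls in A673 were not far above it.

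The median log2 fold change of the 31 genes was 0.43 in A673, 0.06 in MRPL45-KO cells, 0.12 in CYC1-KO cells and 0.32 in UQCRFS1-KO cells. The median of those 10597 genes was 0.18, 0.02, 0.04 and 0.14 in the same order. The largest rise in any line was that of PAPPA in UQCRFS1-KO cells, a log2 fold change of 1.34, and the largest fall was that of PPP1R1A there, -1.40. No gene changed 2-fold in MRPL45-KO or CYC1-KO cells, and 6 were called with at least a 2-fold change in A673 and 5 in UQCRFS1-KO cells. With upper-quartile factors the median of all genes shifted by -0.182 in A673 and by -0.136 in UQCRFS1-KO cells, and by -0.029 and -0.027 in MRPL45-KO and CYC1-KO cells. The balance of rises and falls thus depends on the scaling. Of all called genes 54.5% were higher in A673 and 54.1% in UQCRFS1-KO cells, but 41.6% and 43.6% with upper-quartile factors. Of the 31 genes, 16 rose and 12 fell in A673 with those factors. In bulk RNA, fewer cells of a type and less RNA per cell cannot be told apart.

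**Figure D1:**
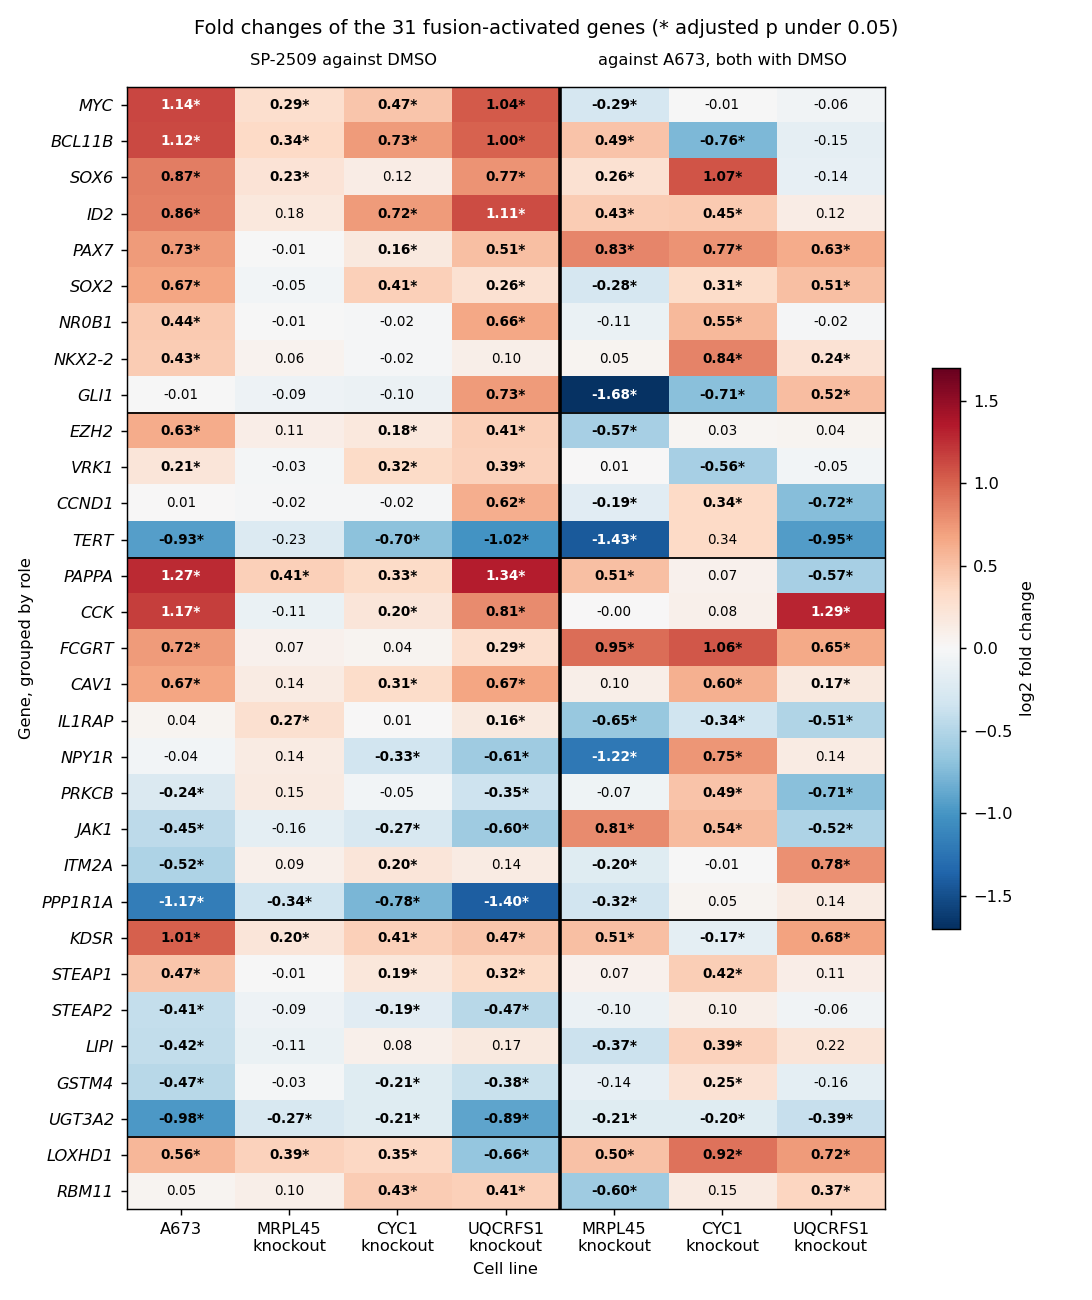
Log2 fold change of each of the 31 genes (rows, grouped by role) for SP-2509 against DMSO in 4 lines (left) and for each knockout line against A673 with DMSO (right). Red is higher, blue is lower, and an asterisk marks an adjusted p under 0.05; the A673 column holds 17 rises and 9 falls, and the MRPL45-KO column 7 and 2.

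The roles used to group the genes were assigned with earlier results of these data known, so counts by role are descriptions. Of the 9 transcription factor genes, 8 rose with SP-2509 in A673 and none fell. The same counts were found in UQCRFS1-KO cells, with 5 rises in CYC1-KO cells and 3 in MRPL45-KO cells, and no fall in any line. Beside this, 49.6% of genes at or above 5 CPM rose in A673 and 27.8% fell. In UQCRFS1-KO cells 46.6% rose and 29.6% fell, in CYC1-KO cells 30.5% and 22.2%, and in MRPL45-KO cells 18.2% and 13.2%. MYC (ENSG00000136997), the proto-oncogene that drives growth and ribosome production, stood in A673 at 179.6 and 184 CPM with DMSO and at 417 and 387 CPM with SP-2509. In UQCRFS1-KO cells it went from 168 and 181 to 366 and 349 CPM, in CYC1-KO cells from 179 and 183 to 243 and 259 CPM, and in MRPL45-KO cells from 148 and 149 to 188 and 176 CPM. Everywhere the SP-2509 libraries of MYC lay above the DMSO libraries. The log2 fold changes of MYC were 1.14 ± 0.06 (SE, n = 2 libraries per group here and below) in A673, 1.04 ± 0.06 in UQCRFS1-KO cells, 0.47 ± 0.06 in CYC1-KO cells and 0.29 ± 0.06 in MRPL45-KO cells. By edgeR's quasi-likelihood test with Benjamini-Hochberg adjustment, p was 5.53e-14, 3.97e-13, 1.26e-06 and 0.00144 in the same order.

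BCL11B (ENSG00000127152), a zinc finger factor known for its role in T cells and neurons, stood in A673 at 139 and 160.1 CPM with DMSO and at 338 and 314 CPM with SP-2509. It went from 133 and 136 to 261 and 276 CPM in UQCRFS1-KO cells, from 84.8 and 92.5 to 143 and 150.3 CPM in CYC1-KO cells and from 222 and 198 to 265 and 267 CPM in MRPL45-KO cells. All 4 rises passed the test, with log2 fold changes of 1.12 ± 0.07, 1.00 ± 0.07, 0.73 ± 0.07 and 0.34 ± 0.07 (edgeR quasi-likelihood, adjusted p of 0.00113 or less). ID2 (ENSG00000115738), an inhibitor of basic helix-loop-helix factors, stood in A673 at 87.7 and 79.4 CPM with DMSO and at 156 and 148 CPM with SP-2509. In UQCRFS1-KO cells ID2 went from 92.6 and 89.4 to 210.2 and 182 CPM, in CYC1-KO cells from 119 and 110.2 to 193 and 183 CPM, and in MRPL45-KO cells from 108 and 117 to 133 and 122 CPM. The ID2 libraries were apart by treatment in every line, but its log2 fold change of 0.18 ± 0.07 in MRPL45-KO cells did not pass the test (edgeR quasi-likelihood, adjusted p = 0.0931). In the other lines ID2 rose by 0.86 ± 0.07 (A673), 1.11 ± 0.07 (UQCRFS1-KO) and 0.72 ± 0.07 (CYC1-KO) on the log2 scale.

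SOX6 (ENSG00000110693), a SOX-D factor of cartilage and neural development, stood in A673 at 47.1 and 46.8 CPM with DMSO and at 88.4 and 83.0 CPM with SP-2509. It went from 43.0 and 42.0 to 73.5 and 71.2 CPM in UQCRFS1-KO cells, from 58.3 and 53.6 to 66.2 and 65.3 CPM in MRPL45-KO cells, and from 97.3 and 99.6 to 106 and 108 CPM in CYC1-KO cells. The CYC1 knockout libraries with DMSO were thus already above every A673 library. SOX6 rose by 0.87 ± 0.06 in A673, 0.77 ± 0.06 in UQCRFS1-KO cells and 0.23 ± 0.06 in MRPL45-KO cells (lost without DMSO replicate 2 and in a fit of only the groups compared), and its value in CYC1-KO cells was 0.12 ± 0.06 (edgeR quasi-likelihood, adjusted p = 0.0964). GLI1 (ENSG00000111087), the transcription factor at the end of hedgehog signalling, stood in A673 at 17.1 and 19.1 CPM with DMSO and at 17.8 and 18.1 CPM with SP-2509. It was at 10.5 and 11.7 and then 10.1 and 10.7 CPM in CYC1-KO cells and at 4.99 and 6.5 and then 5.31 and 5.3 CPM in MRPL45-KO cells. In UQCRFS1-KO cells GLI1 went from 24.8 and 27.2 to 42.8 and 43.6 CPM. The libraries of the 2 treatments overlapped in the first 3 lines and were far apart in the last, where GLI1 rose by 0.73 ± 0.09 (edgeR quasi-likelihood, adjusted p = 8.13e-08). The response of GLI1 in UQCRFS1-KO cells exceeded that in A673 by 0.74 ± 0.12 (adjusted p = 0.000258).

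The other 4 factor genes reached a called 2-fold change in no comparison. NR0B1, the orphan receptor DAX1 that is needed for transformation by the fusion, lay between 98.5 and 178 CPM over all libraries and rose by 0.44 ± 0.07 in A673 and by 0.66 ± 0.07 in UQCRFS1-KO cells. Its values were -0.01 ± 0.07 and -0.02 ± 0.07 in MRPL45-KO and CYC1-KO cells. NKX2-2, a homeobox repressor used as a marker of Ewing sarcoma, lay between 38.4 and 71.5 CPM and rose in A673 (0.43 ± 0.07), while the other lines gave values between -0.02 and 0.10 that did not pass the test. PAX7, a factor of muscle stem cells, rose in A673 (0.73 ± 0.06) and in UQCRFS1-KO cells (0.51 ± 0.06), and its call in CYC1-KO cells (0.16 ± 0.06, adjusted p = 0.0499 by edgeR) was lost under 9 alternatives. SOX2, a factor of stem and neural progenitor cells, rose in A673 (0.67 ± 0.08), in CYC1-KO cells (0.41 ± 0.08) and in UQCRFS1-KO cells (0.26 ± 0.08). The last of these SOX2 calls was lost under 4 alternatives. NKX2-2 shares 638 exon bases with an antisense transcript and SOX6 219 with C11orf58, and the counting is not stated to use strand, so reads of such neighbours cannot be told apart.

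**Figure D2:**
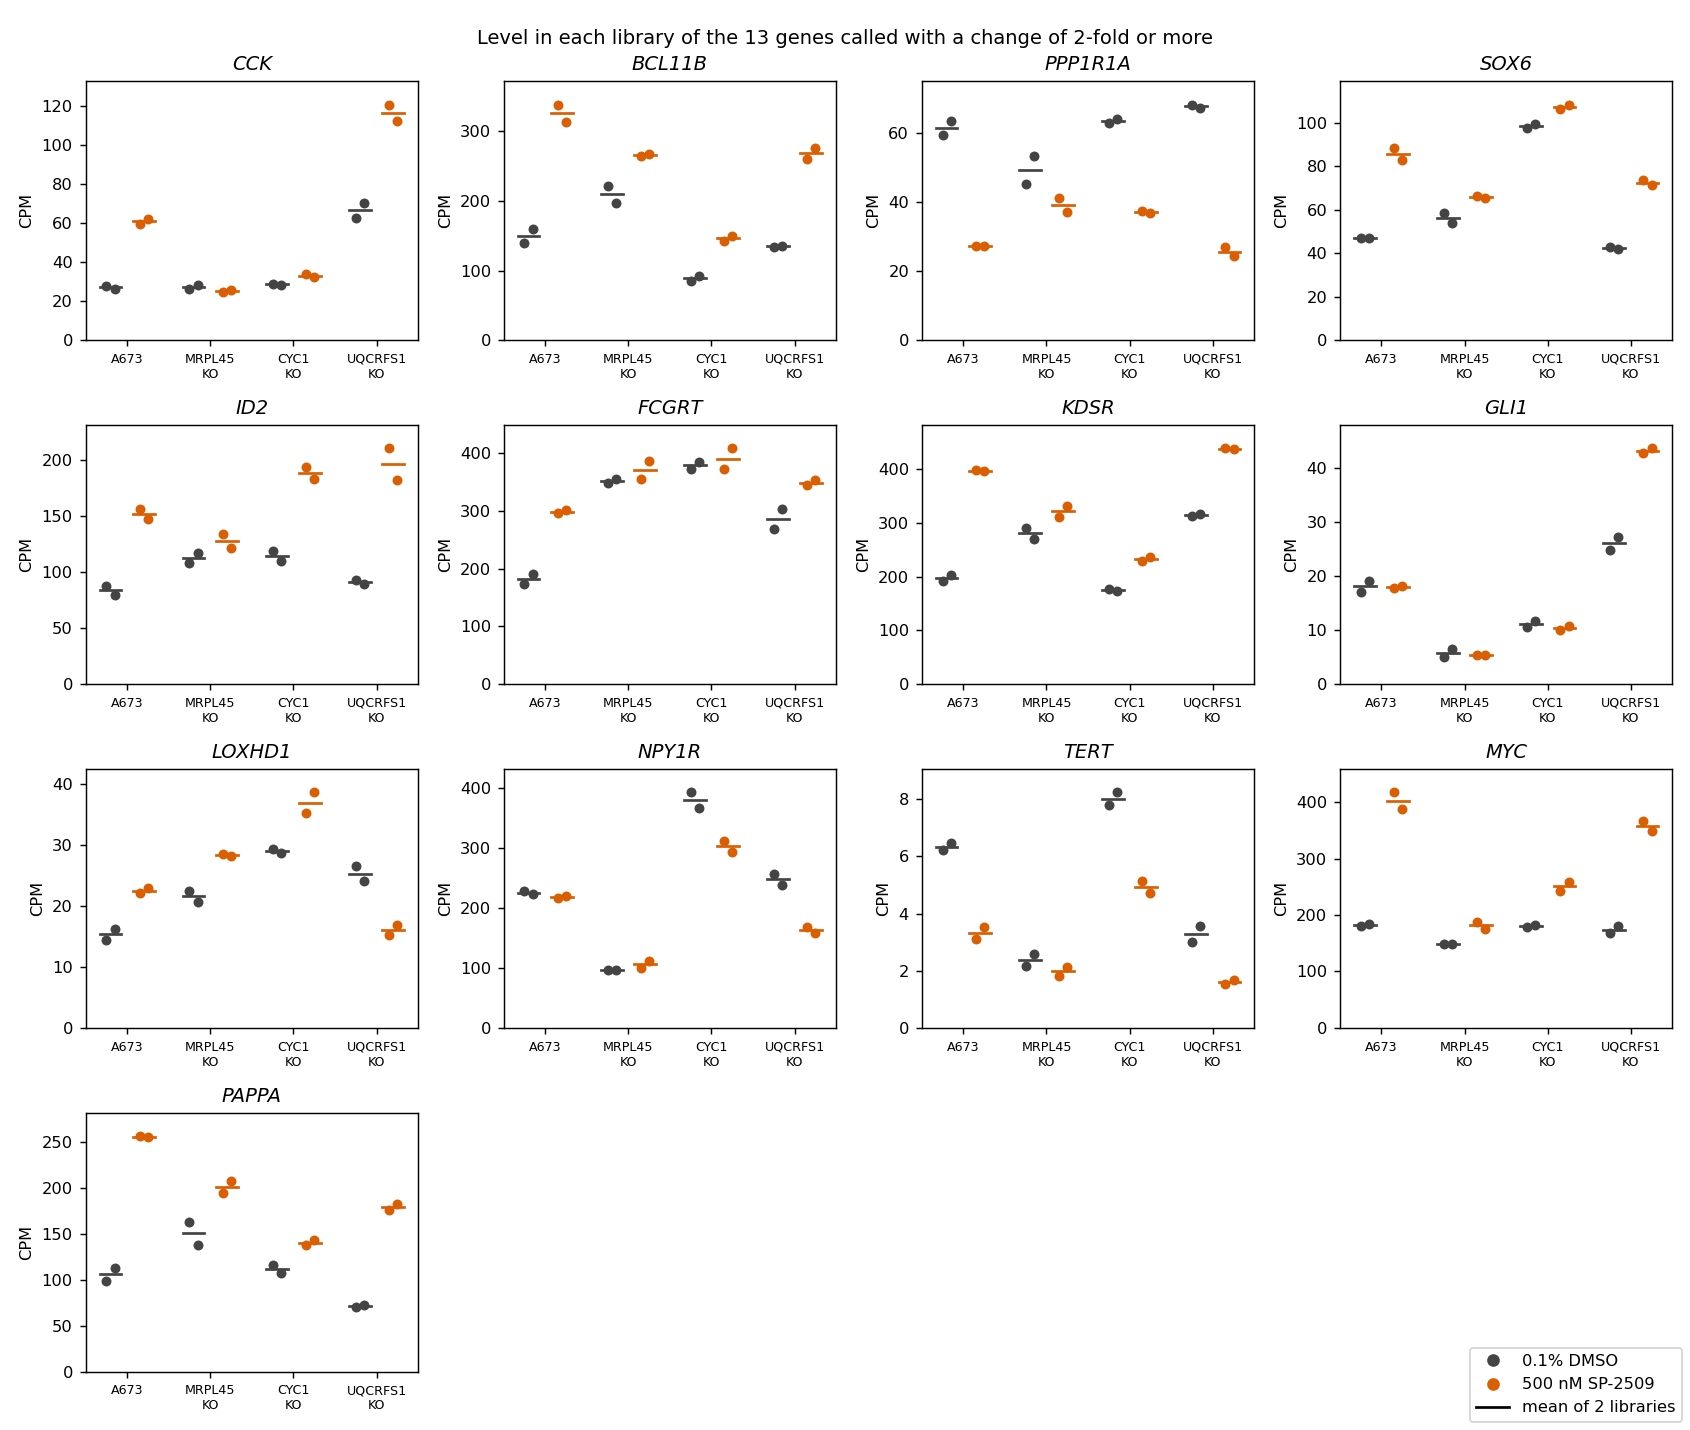
CPM (y axis, from 0) in each of the 16 libraries for the 13 genes that reached a called log2 fold change of at least 1 in any of the 10 comparisons, by line, with DMSO in grey and SP-2509 in orange; points are libraries and bars are means of 2. PPP1R1A is lower with SP-2509 in every line, MYC and PAPPA are higher in every line, and LOXHD1 is higher in 3 lines and lower in UQCRFS1-KO cells.

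The 4 genes of chromatin, telomeres and the cell cycle went different ways. TERT (ENSG00000164362), the catalytic subunit of telomerase, was the gene with the lowest level per kilobase and stood in A673 at 6.21 and 6.47 CPM with DMSO and at 3.11 and 3.54 CPM with SP-2509. It went from 3.02 and 3.55 to 1.53 and 1.69 CPM in UQCRFS1-KO cells and from 7.78 and 8.24 to 5.12 and 4.72 CPM in CYC1-KO cells. In MRPL45-KO cells it was at 2.17 and 2.57 CPM with DMSO and 1.81 and 2.14 CPM with SP-2509, and these libraries did not overlap but lay close together. TERT fell by 1.9-fold in A673 (-0.93 ± 0.14), 2.03-fold in UQCRFS1-KO cells (-1.02 ± 0.15) and 1.63-fold in CYC1-KO cells (-0.70 ± 0.14; edgeR quasi-likelihood, adjusted p of 0.000217 or less). In MRPL45-KO cells its value was -0.23 ± 0.16 (adjusted p = 0.445 by edgeR).

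EZH2, the methyltransferase of the Polycomb repressive complex, lay between 113 and 269.6 CPM and rose in A673 (0.63 ± 0.05), in UQCRFS1-KO cells (0.41 ± 0.05) and in CYC1-KO cells (0.18 ± 0.05), where the call was lost without any 1 of the 4 libraries. VRK1, a nuclear serine-threonine kinase, rose in UQCRFS1-KO cells (0.39 ± 0.07) and CYC1-KO cells (0.32 ± 0.07). Its rise in A673 (0.21 ± 0.07, adjusted p = 0.0106 by edgeR) was lost without any 1 of the 4 libraries and with upper-quartile factors. CCND1, cyclin D1, drives entry into the cell cycle. It stood at 1719 and 1919.5 CPM with DMSO and 1883 and 1785 CPM with SP-2509 in A673, and the groups overlapped. In UQCRFS1-KO cells CCND1 went from 1073 and 1129.7 to 1685 and 1695 CPM, which brought it from below every A673 library to just under the lowest of them. CCND1 rose there by 0.62 ± 0.06 (edgeR quasi-likelihood, adjusted p = 1.07e-08). The difference from the response of A673 was 0.61 ± 0.09 (adjusted p = 7.36e-05), while A673 itself gave 0.01 ± 0.06, which became -0.17 with upper-quartile factors.

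Among the 10 genes of ligands, receptors and signalling, 4 rose and 4 fell in A673. Of genes at or above 5 CPM, 49.6% rose there and 27.8% fell. PAPPA (ENSG00000182752), a secreted metalloproteinase that cleaves binding proteins of insulin-like growth factors, stood in A673 at 99.2 and 113 CPM with DMSO and at 256 and 255 CPM with SP-2509. It went from 70.0 and 72.2 to 176 and 183 CPM in UQCRFS1-KO cells, from 163 and 138 to 195 and 207 CPM in MRPL45-KO cells and from 116 and 107 to 138 and 143 CPM in CYC1-KO cells. Its libraries were apart by treatment in every line, and it rose by 2.42-fold (1.27 ± 0.07), 2.53-fold (1.34 ± 0.07), 1.33-fold (0.41 ± 0.07) and 1.26-fold (0.33 ± 0.07) in that order of lines (edgeR quasi-likelihood, adjusted p of 0.000696 or less). PAPPA shares 2450 exon bases with an antisense transcript, PAPPA-AS1, and CCK shares 693 with an antisense transcript of its own. On the other strand, PPP1R1A shares 443 exon bases with PDE1B and CCND1 497 with LTO1. Not every overlap of the 31 genes is listed here.

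CCK (ENSG00000187094), the precursor of the peptide hormone cholecystokinin, stood in A673 at 27.8 and 26.5 CPM with DMSO and at 59.8 and 62.1 CPM with SP-2509, a rise of 2.24-fold (1.17 ± 0.07, edgeR quasi-likelihood, adjusted p = 2.1e-13). In UQCRFS1-KO cells it was already at 62.8 and 70.3 CPM with DMSO and rose to 121 and 112 CPM (0.81 ± 0.06). In MRPL45-KO cells it stood at 26.1 and 28.3 and then 24.5 and 25.8 CPM, and in CYC1-KO cells at 29.0 and 28.5 and then 33.7 and 32.4 CPM. These libraries were close together, with -0.11 ± 0.07 in MRPL45-KO cells and 0.20 ± 0.07 in CYC1-KO cells, the latter a call that was lost without any 1 of the 4 libraries. The response of CCK differed from that of A673 by -1.27 ± 0.10 in MRPL45-KO cells and by -0.96 ± 0.10 in CYC1-KO cells (adjusted p = 2.12e-10 and 2.57e-08 by edgeR).

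PPP1R1A (ENSG00000135447), an inhibitor of protein phosphatase 1 that is regulated by protein kinase A, stood in A673 at 59.6 and 63.6 CPM with DMSO and at 27.4 and 27.4 CPM with SP-2509. It went from 68.4 and 67.5 to 27.1 and 24.4 CPM in UQCRFS1-KO cells, from 63.1 and 64.3 to 37.5 and 36.8 CPM in CYC1-KO cells and from 45.3 and 53.5 to 41.2 and 37.1 CPM in MRPL45-KO cells. All SP-2509 libraries lay below all DMSO libraries of the gene. PPP1R1A fell by 2.64-fold in UQCRFS1-KO cells (-1.40 ± 0.07), 2.25-fold in A673 (-1.17 ± 0.07), 1.71-fold in CYC1-KO cells (-0.78 ± 0.07) and 1.26-fold in MRPL45-KO cells (-0.34 ± 0.07). The edgeR quasi-likelihood, adjusted p was 0.00215 or less, but the call in MRPL45-KO cells was lost without replicate 2 of either treatment. UGT3A2 was the other gene that fell in all 4 lines.

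FCGRT (ENSG00000104870), the receptor that recycles immunoglobulin G, stood in A673 at 173 and 190.2 CPM with DMSO and at 296 and 302 CPM with SP-2509. With DMSO it was at 349 and 355 CPM in MRPL45-KO cells, 373 and 386 CPM in CYC1-KO cells and 269 and 302 CPM in UQCRFS1-KO cells. With SP-2509 these lines were at 355 and 386, 372 and 408 and 345 and 353 CPM. So every knockout library except replicate 1 of the UQCRFS1 line with DMSO lay near or above the A673 libraries with SP-2509. FCGRT rose with SP-2509 in A673 (0.72 ± 0.07) and in UQCRFS1-KO cells (0.29 ± 0.07), and its values were 0.07 ± 0.07 and 0.04 ± 0.07 in MRPL45-KO and CYC1-KO cells.

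NPY1R (ENSG00000164128), a receptor of neuropeptide Y, stood in A673 at 228 and 223 CPM with DMSO and at 217 and 221 CPM with SP-2509. In CYC1-KO cells it went from 393 and 367 to 312 and 294 CPM and in UQCRFS1-KO cells from 258 and 239 to 168 and 159 CPM. In MRPL45-KO cells it was at 96.6 and 96.9 and then 101 and 112 CPM, less than in any library of the other lines. NPY1R fell with SP-2509 in UQCRFS1-KO cells (-0.61 ± 0.06) and CYC1-KO cells (-0.33 ± 0.06), and its values were -0.04 ± 0.06 in A673 and 0.14 ± 0.06 in MRPL45-KO cells. The gene shares 528 exon bases with NPY5R on the other strand.

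CAV1, caveolin, is the coat protein of membrane caveolae and lay between 2104 and 3967 CPM. It rose by 0.67 ± 0.06 in A673, 0.67 ± 0.06 in UQCRFS1-KO cells and 0.31 ± 0.06 in CYC1-KO cells, with 0.14 ± 0.06 in MRPL45-KO cells (adjusted p = 0.0932 by edgeR). JAK1, a tyrosine kinase of cytokine receptors, fell in A673 (-0.45 ± 0.06), in UQCRFS1-KO cells (-0.60 ± 0.06) and in CYC1-KO cells (-0.27 ± 0.06). PRKCB, a protein kinase C that the fusion controls directly, fell in A673 (-0.24 ± 0.06) and in UQCRFS1-KO cells (-0.35 ± 0.06). IL1RAP, the accessory chain of interleukin receptors, rose in MRPL45-KO cells (0.27 ± 0.06) and in UQCRFS1-KO cells (0.16 ± 0.06, lost under 6 alternatives). In A673 IL1RAP was at 0.04 ± 0.06, which became -0.14 with upper-quartile factors. ITM2A, a membrane protein of cartilage and muscle development, went from 447 and 406 to 291 and 304 CPM in A673 and fell (-0.52 ± 0.07). In CYC1-KO cells ITM2A gave 0.20 ± 0.07 (adjusted p = 0.0339 by edgeR), a rise that was lost under 8 alternatives, and in UQCRFS1-KO cells 0.14 ± 0.07.

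The promoter of CAV1 is shown because it holds a tandem GGAAGGAA, the smallest repeat of the fusion's binding unit. Shown are the 250 bases before the second of 3 RefSeq starts of CAV1 (GRCh38.p14, chr7:116524786-116525035, plus strand), in lower case and 5′ to 3′, with each GGAA or its reverse complement in capitals.
CAV1: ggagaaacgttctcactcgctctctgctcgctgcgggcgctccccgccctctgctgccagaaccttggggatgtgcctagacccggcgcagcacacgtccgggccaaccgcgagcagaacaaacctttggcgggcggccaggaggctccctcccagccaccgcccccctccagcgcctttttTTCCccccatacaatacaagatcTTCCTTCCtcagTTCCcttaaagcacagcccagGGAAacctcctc
The tandem lies on the minus strand 45 bases before the start. Of the 31 genes, 26 were used here with a RefSeq promoter, with 42 windows of 250 bases in all. Some of these windows overlap each other. The remaining genes had no match or were set aside, as given with the processing. GGAA on either strand was in 38 of the 42 (90.5%), and in 92.7% of all 35116 windows of the same length. GGAAGGAA on either strand, whose letters also count as 2 GGAA, was in 4 of the 42 (9.5%), and in 3.06% of all windows. Those 4 windows belong to CAV1, SOX6 and LOXHD1. The 2 windows of CAV1 among them overlap and hold the same tandem, which is thus counted for each. Repeats farther from a start are outside these windows.

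All 6 genes grouped as enzymes were called in A673, with 2 rises and 4 falls. Of genes at or above 5 CPM, 77.4% were called there, 49.6% higher and 27.8% lower. KDSR (ENSG00000119537), the reductase of sphingolipid synthesis that makes dihydrosphingosine, stood in A673 at 192 and 202 CPM with DMSO and at 399 and 396 CPM with SP-2509. It went from 314 and 317 to 439 and 437 CPM in UQCRFS1-KO cells, from 176 and 174 to 229 and 237 CPM in CYC1-KO cells and from 290.2 and 271 to 312 and 332 CPM in MRPL45-KO cells. Its libraries did not overlap between treatments in any line. KDSR rose by 1.01 ± 0.06 in A673, 0.47 ± 0.06 in UQCRFS1-KO cells, 0.41 ± 0.06 in CYC1-KO cells and 0.20 ± 0.06 in MRPL45-KO cells (edgeR quasi-likelihood, adjusted p of 0.0159 or less). The last call was lost without replicate 2 of either treatment and in a fit of only the groups compared.

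UGT3A2, a glycosyltransferase that conjugates small molecules with UDP-sugars, went from 687 and 732 to 364 and 355 CPM in A673 and from 545 and 541 to 299 and 286 CPM in UQCRFS1-KO cells. The libraries of the 2 treatments were far apart in both lines. UGT3A2 fell in A673 (-0.98 ± 0.06) and in UQCRFS1-KO (-0.89 ± 0.06), MRPL45-KO (-0.27 ± 0.06) and CYC1-KO cells (-0.21 ± 0.06). The call in MRPL45-KO cells was lost without SP-2509 replicate 1, and that in CYC1-KO cells without replicate 1 of either treatment or SP-2509 replicate 2. GSTM4, a glutathione transferase, fell in A673 (-0.47 ± 0.06), in UQCRFS1-KO cells (-0.38 ± 0.06) and in CYC1-KO cells (-0.21 ± 0.06, lost without any 1 of the 4 libraries). It shares 375 exon bases with GSTM2, a close paralog, so its counts are uncertain.

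STEAP1 and STEAP2 are paralogs that encode proteins of the plasma membrane and endosomes. STEAP2 is a metalloreductase, and STEAP1 is a surface marker of Ewing sarcoma. They lie beside each other on chromosome 7 with 46913 bases between them, and they moved in opposite directions. In A673 STEAP1 went from 150.4 and 139 CPM with DMSO to 199 and 201 CPM with SP-2509, and STEAP2 from 196 and 197 to 147 and 149 CPM. In UQCRFS1-KO cells STEAP1 went from 159 and 154 to 209.9 and 182 CPM and STEAP2 from 197 and 182 to 136 and 137 CPM. The treatments did not overlap for either gene in either line. STEAP1 rose in these 2 lines (0.47 ± 0.07 and 0.32 ± 0.07) and STEAP2 fell (-0.41 ± 0.06 and -0.47 ± 0.06; edgeR quasi-likelihood, adjusted p of 0.000172 or less). In CYC1-KO cells the values were 0.19 ± 0.07 and -0.19 ± 0.06, both called. The STEAP1 call was lost under 9 alternatives, among them other scaling factors, other low-count filters and DESeq2's Wald test. The STEAP2 call was lost under 3 alternatives that each left out 1 library. In MRPL45-KO cells they were -0.01 ± 0.07 and -0.09 ± 0.06, and neither passed the test. STEAP1 has a near-identical copy elsewhere in the genome, STEAP1B, so its counts are uncertain.

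The upstream sequences of this pair are shown because the genes are neighbours with opposite responses. They are the 250 bases before the RefSeq start of STEAP1 (GRCh38.p14, chr7:90154219-90154468) and before the first listed of 2 starts of STEAP2 (chr7:90211490-90211739), both on the plus strand and 5′ to 3′, with GGAA and its reverse complement in capitals.
STEAP1: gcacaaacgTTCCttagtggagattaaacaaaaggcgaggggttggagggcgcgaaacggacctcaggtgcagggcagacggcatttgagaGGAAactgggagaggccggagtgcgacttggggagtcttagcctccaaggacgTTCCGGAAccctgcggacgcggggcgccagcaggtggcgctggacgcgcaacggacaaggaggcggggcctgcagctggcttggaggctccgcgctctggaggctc
STEAP2: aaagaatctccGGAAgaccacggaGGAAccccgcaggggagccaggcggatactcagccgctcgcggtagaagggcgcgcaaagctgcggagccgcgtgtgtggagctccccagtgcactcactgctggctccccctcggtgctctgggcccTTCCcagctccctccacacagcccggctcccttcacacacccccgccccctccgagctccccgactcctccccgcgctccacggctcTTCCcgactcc
Each of these windows held 4 GGAA cores, and neither held GGAAGGAA.

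LIPI, a membrane phospholipase that makes lysophosphatidic acid, and RBM11, an RNA-binding regulator of splicing, are also neighbours, with 5202 bases between them on chromosome 21 and facing away from each other. LIPI went from 156 and 134 to 108 and 109 CPM in A673 and fell there (-0.42 ± 0.09), and the other lines gave values between -0.11 and 0.17 that did not pass the test. RBM11 rose in CYC1-KO cells (0.43 ± 0.07) and in UQCRFS1-KO cells (0.41 ± 0.07) and was at 0.05 ± 0.07 in A673. The response of LIPI differed from that of A673 by 0.50 ± 0.13 in CYC1-KO cells and 0.59 ± 0.13 in UQCRFS1-KO cells, and that of RBM11 by 0.38 ± 0.10 and 0.36 ± 0.10 (edgeR quasi-likelihood, adjusted p of 0.0253 or less). The last of these 4 differences was lost without single libraries.

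**Figure D3:**
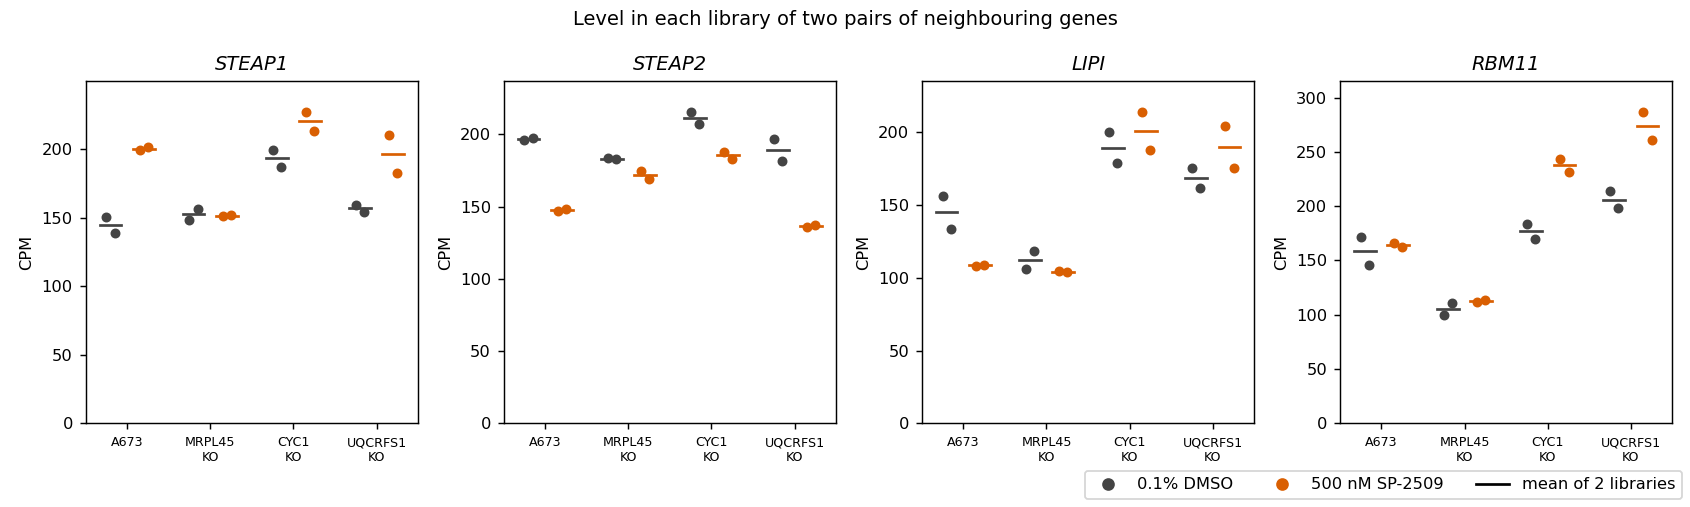
CPM (y axis, from 0) in each of the 16 libraries for the neighbours STEAP1 and STEAP2 and for LIPI and RBM11, with DMSO in grey, SP-2509 in orange and bars at the mean of 2 libraries. In A673 STEAP1 is higher and STEAP2 and LIPI are lower with SP-2509, while the RBM11 libraries overlap.

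LOXHD1 (ENSG00000167210), known for its role in the hair cells of the inner ear, was called in opposite directions in different lines. It went from 14.5 and 16.1 to 22.1 and 22.9 CPM in A673, from 22.5 and 20.7 to 28.5 and 28.1 CPM in MRPL45-KO cells and from 29.2 and 28.6 to 35.2 and 38.6 CPM in CYC1-KO cells. In UQCRFS1-KO cells it went from 26.5 and 24.0 down to 15.2 and 16.8 CPM, near the level of A673 with DMSO. LOXHD1 rose by 0.56 ± 0.08, 0.39 ± 0.08 and 0.35 ± 0.08 and fell in UQCRFS1-KO cells (-0.66 ± 0.08; edgeR quasi-likelihood, adjusted p of 0.00101 or less for all 4). Its response in UQCRFS1-KO cells differed from that in A673 by -1.21 ± 0.11 (adjusted p = 1.03e-07), and no alternative ended that call.

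Across the 4 lines, which share no library, 6 genes were called in the same direction in each: BCL11B, MYC, KDSR and PAPPA rose, and PPP1R1A and UGT3A2 fell. Of all tested genes 11.5% were called in the same direction in all 4 responses, and 20.9% of those at or above 5 CPM. No gene was without a call in all 4 lines. LOXHD1 and ITM2A were called in both directions. A673 and UQCRFS1-KO cells had 23 genes called in both, 22 of them in the same direction, and LOXHD1 was the other. Beside this, 45.3% of all tested genes were called in both and 44.6% in the same direction, or 66.9% and 65.8% of those at or above 5 CPM. GLI1, CCND1, NPY1R, RBM11 and IL1RAP were called in UQCRFS1-KO cells and not in A673, though NPY1R fell in A673 with upper-quartile factors (-0.23) and with a filter of 1 CPM in 2 libraries (-0.18). The median size of the log2 fold change was 0.56 in A673, 0.60 in UQCRFS1-KO cells, 0.21 in CYC1-KO cells and 0.11 in MRPL45-KO cells. For genes at or above 5 CPM it was 0.46, 0.42, 0.22 and 0.15 in the same order. Over the 31 genes the log2 fold changes of A673 and UQCRFS1-KO cells had a Pearson correlation of 0.82 (Spearman 0.81), against 0.79 (0.75) for CYC1-KO and 0.70 (0.63) for MRPL45-KO cells. Over the 10597 genes at or above 5 CPM Pearson's r was 0.92, 0.78 and 0.71. These are descriptions across genes, which are not independent and share libraries.

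**Figure D4:**
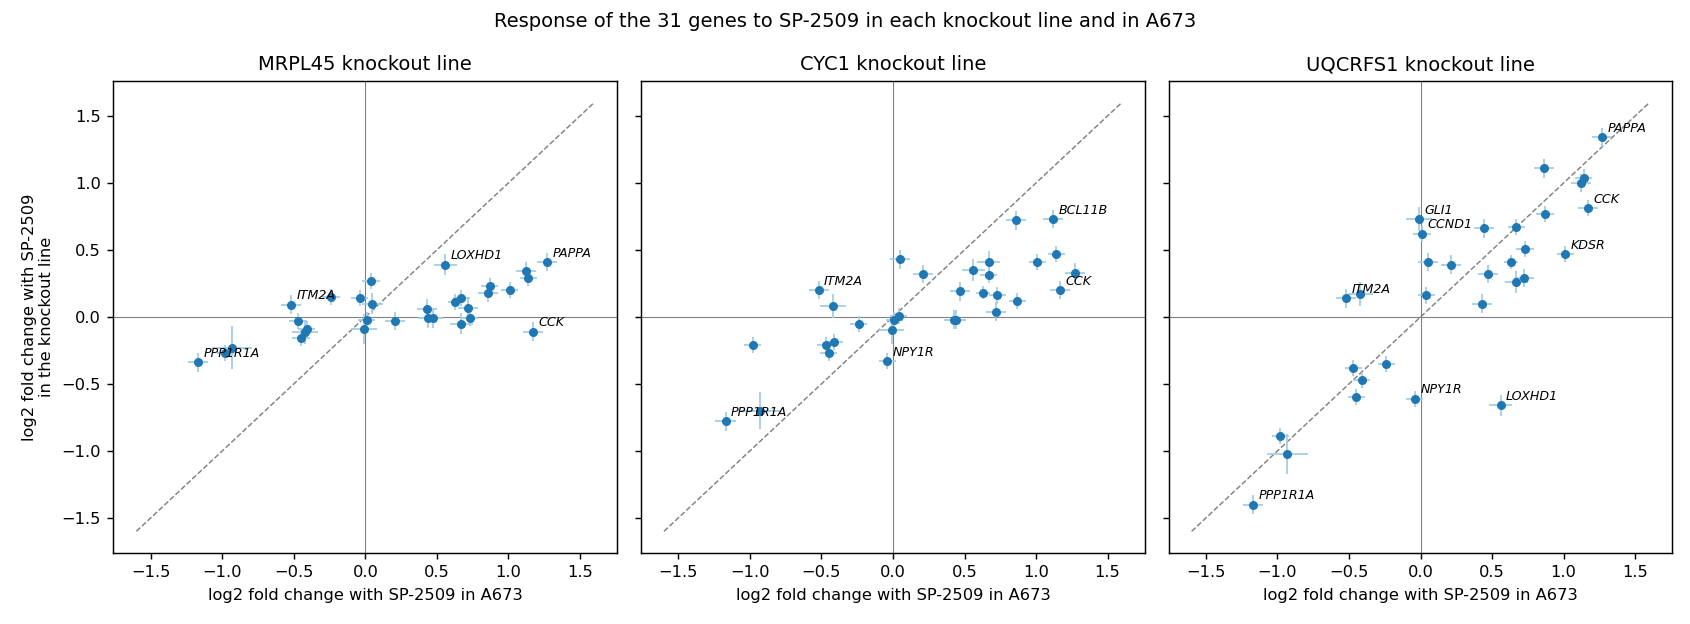
Log2 fold change with SP-2509 of each of the 31 genes in A673 (x axis) and in each knockout line (y axis), with SE bars; the dashed line marks equal responses. Points lie along the dashed line in the UQCRFS1-KO panel except for genes such as LOXHD1, GLI1 and CCND1, and flatten toward 0 in the MRPL45-KO panel, where CCK is at -0.11 against 1.17 in A673.

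The difference between the response of a knockout line and that of A673 was tested gene by gene in the same fit. In MRPL45-KO cells 24 of the 31 genes differed, 9 higher and 15 lower, beside 38.7% of all tested genes (14.5% higher and 24.2% lower) and 59.1% of those at or above 5 CPM (18.6% and 40.5%). In CYC1-KO cells 21 differed, 7 higher and 14 lower, beside 33.9% (12.8% and 21.0%) and 53.8% (16.3% and 37.5%), and the split was 10 and 11 with upper-quartile factors. In UQCRFS1-KO cells 12 differed, 5 higher and 7 lower, beside 10.7% (3.02% and 7.67%) and 18.4% (4.98% and 13.5%), and 7 did without UQCRFS1 DMSO replicate 2, where the split was 4 and 3. The genes with the largest differences in MRPL45-KO cells were CCK (-1.27 ± 0.10), PAPPA (-0.86 ± 0.10), MYC (-0.85 ± 0.09) and PPP1R1A (0.83 ± 0.10). CCK, PAPPA and MYC had lower log2 fold changes and PPP1R1A a less negative one there than in A673. With upper-quartile factors the median of all genes shifted by 0.152 in MRPL45-KO and 0.151 in CYC1-KO cells. The share of all called differences that were higher went from 37.5% to 52.9% and from 37.9% to 57.0% in these lines. All 3 sets of differences share the A673 libraries.

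How the lines differed without the drug was read from each against A673, both with DMSO. In MRPL45-KO cells 22 of the 31 genes were called, 9 higher and 13 lower, beside 57.8% of all tested genes (28.9% higher and 29.0% lower), and 76.1% of those at or above 5 CPM (31.6% and 44.4%). With upper-quartile factors the split was 11 and 10. In CYC1-KO cells 16 were higher and 6 lower, beside 37.6% (21.4% and 16.2%) and 53.8% (33.1% and 20.7%). In UQCRFS1-KO cells 11 were higher and 7 lower, beside 30.8% (15.8% and 15.0%) and 47.8% (23.9% and 23.9%). Of all called genes 49.9%, 56.9% and 51.3% were higher in MRPL45-KO, CYC1-KO and UQCRFS1-KO cells, and 55.5%, 43.4% and 51.6% with upper-quartile factors. The 3 comparisons share the 2 DMSO libraries of A673.

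GLI1 and TERT, transcription factor and telomerase gene, had the lowest levels relative to A673, both in MRPL45-KO cells. GLI1 was at 4.99 and 6.5 CPM there against 17.1 and 19.1 CPM in A673 (3.2-fold lower, -1.68 ± 0.10), and it was also lower in CYC1-KO cells (-0.71 ± 0.09) and higher in UQCRFS1-KO cells (0.52 ± 0.09). TERT was at 2.17 and 2.57 CPM against 6.21 and 6.47 CPM (2.7-fold lower, -1.43 ± 0.15), with -0.95 ± 0.14 in UQCRFS1-KO cells. NPY1R followed in MRPL45-KO cells (2.33-fold lower, -1.22 ± 0.06) and was higher in CYC1-KO cells (0.75 ± 0.06). EZH2 and RBM11 were also lower in MRPL45-KO cells (-0.57 ± 0.06 and -0.60 ± 0.07). Among these the highest edgeR quasi-likelihood, adjusted p was 6.4e-05.

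The largest rises against A673 were those of CCK in UQCRFS1-KO cells (62.8 and 70.3 against 27.8 and 26.5 CPM; 2.45-fold, 1.29 ± 0.07), and of SOX6 and FCGRT in CYC1-KO cells (2.1-fold, 1.07 ± 0.06, and 2.09-fold, 1.06 ± 0.07). NKX2-2 and NR0B1 were also higher in CYC1-KO cells (0.84 ± 0.07 and 0.55 ± 0.07), with no overlap of libraries. PAX7, FCGRT and LOXHD1 were higher than in A673 in all 3 knockout lines. PAX7 was higher by 0.83, 0.77 and 0.63, FCGRT by 0.95, 1.06 and 0.65, and LOXHD1 by 0.50, 0.92 and 0.72 in MRPL45-KO, CYC1-KO and UQCRFS1-KO cells. IL1RAP and UGT3A2 were lower in all 3, with -0.65, -0.34 and -0.51 for IL1RAP and -0.21, -0.20 and -0.39 for UGT3A2. Since these values are set against the same 2 A673 libraries, a shared direction is not an independent repeat. For UGT3A2 the call in MRPL45-KO cells was lost with upper-quartile factors and in a fit of only the groups compared, and that in CYC1-KO cells without DMSO replicate 2 of either line.

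Several genes went opposite ways between the lines. BCL11B was higher in MRPL45-KO cells (0.49 ± 0.07) and lower in CYC1-KO cells (-0.76 ± 0.07). JAK1 was higher in both MRPL45-KO and CYC1-KO cells (0.81 ± 0.06 and 0.54 ± 0.06) and lower in UQCRFS1-KO cells (-0.52 ± 0.06). PRKCB was higher in CYC1-KO cells (0.49 ± 0.06) and lower in UQCRFS1-KO cells (-0.71 ± 0.06). CCND1 was also higher in CYC1-KO and lower in UQCRFS1-KO cells (0.34 ± 0.06 and -0.72 ± 0.06), and PAPPA higher in MRPL45-KO and lower in UQCRFS1-KO cells (0.51 ± 0.07 and -0.57 ± 0.07). ITM2A was higher in UQCRFS1-KO cells (0.78 ± 0.07) and lower in MRPL45-KO cells (-0.20 ± 0.07, lost under 6 alternatives). KDSR was higher in MRPL45-KO and UQCRFS1-KO cells (0.51 ± 0.06 and 0.68 ± 0.06). It was lower in CYC1-KO cells (-0.17 ± 0.06, lost under 3 alternatives). VRK1 was called only in CYC1-KO cells, where it was lower (-0.56 ± 0.07). STEAP2 was the only gene of the list with no call in any of the 3 lines, though it was lower in MRPL45-KO cells without the low-count filter (-0.17). The remaining calls had log2 fold changes no larger than 0.60 in size.

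The transcripts of the fusion's partners were looked at beside these genes. FLI1 stood at 89.7 and 96.5 CPM with DMSO and 111 and 115 CPM with SP-2509 in A673 (0.28 ± 0.06) and rose by 0.22 ± 0.06 in UQCRFS1-KO cells, with -0.11 ± 0.06 and -0.09 ± 0.06 in MRPL45-KO and CYC1-KO cells, neither of which passed the test. EWSR1 was at -0.00 ± 0.06 in A673 and -0.10 ± 0.06 in MRPL45-KO cells. It fell in CYC1-KO cells (-0.17 ± 0.06, adjusted p = 0.0319 by edgeR) and rose in UQCRFS1-KO cells (0.14 ± 0.06, adjusted p = 0.0444 by edgeR), both near the threshold. With DMSO, FLI1 differed from A673 by -0.27 ± 0.06 in MRPL45-KO, 0.25 ± 0.06 in CYC1-KO and -0.22 ± 0.06 in UQCRFS1-KO cells. EWSR1 was lower in MRPL45-KO (-0.53 ± 0.06) and UQCRFS1-KO (-0.16 ± 0.06, adjusted p = 0.0462 by edgeR) cells and at 0.14 ± 0.06 in CYC1-KO cells, which did not pass the test. Reads of the fusion transcript are counted under its partner genes and were not separated from the unfused genes. KDM1A, the target of SP-2509, stood with DMSO at 321 and 343 CPM in A673, 171 and 175 CPM in MRPL45-KO, 225 and 222 CPM in CYC1-KO and 359.7 and 379 CPM in UQCRFS1-KO cells. It was lower than in A673 in MRPL45-KO (-0.94 ± 0.06) and CYC1-KO (-0.57 ± 0.06) cells, where the 31 genes had the smaller responses, and higher in UQCRFS1-KO cells (0.15 ± 0.06, adjusted p = 0.0382 by edgeR). Whether the calls of FLI1, EWSR1 and KDM1A stand under other scaling or without single libraries was not looked at. The part of FLI1, EWSR1 and KDM1A in the levels and responses of the 31 genes was not tested.

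A further list of 25 genes reported as activated by EWSR1-FLI1 and not among the 31 was looked at beside them. The background for the called counts is 58.0% of all tested genes called in A673 and 77.4% of those at or above 5 CPM, against 18.5% and 31.4% in MRPL45-KO, 33.4% and 52.7% in CYC1-KO and 54.7% and 76.2% in UQCRFS1-KO cells. By direction, 49.6% of genes at or above 5 CPM rose in A673 and 27.8% fell. The shares were 18.2% and 13.2% in MRPL45-KO, 30.5% and 22.2% in CYC1-KO and 46.6% and 29.6% in UQCRFS1-KO cells. In A673 15 of its 24 tested genes rose and 6 fell (median log2 fold change 0.36), with 9 and 3 in MRPL45-KO cells (0.11), 10 and 4 in CYC1-KO cells (0.11) and 13 and 5 in UQCRFS1-KO cells (0.40). TNC, the matrix protein tenascin-C, had the smallest p among those that rose in each line and rose by 2.18 ± 0.08 in A673, 0.64 ± 0.07 in MRPL45-KO, 1.89 ± 0.08 in CYC1-KO and 2.22 ± 0.08 in UQCRFS1-KO cells. GRP, the gastrin-releasing peptide, fell in A673 (-2.36 ± 0.08) and in CYC1-KO (-0.83 ± 0.08) and UQCRFS1-KO (-1.92 ± 0.08) cells. In MRPL45-KO cells the homeobox gene HOXD11 fell with the smallest p (-0.52 ± 0.11). Of 14 genes reported as repressed by the fusion, 11 rose and 3 fell in A673 with a median of 1.47. The median there was 0.43 for the 31 activated genes, 0.18 for genes at or above 5 CPM and -0.03 for all tested genes. LOX, lysyl oxidase, rose most firmly among them (3.0 ± 0.07), and the collagen gene COL1A2 fell (-2.10 ± 0.09). In UQCRFS1-KO cells 9 rose and 3 fell (median 1.35), in CYC1-KO cells 6 and 5 (0.11), and in MRPL45-KO cells 6 and 1 (0.27). Of 9 genes of the LSD1 complex, 3 rose and 4 fell in A673, with the corepressor genes RCOR1 at 0.47 ± 0.06 and RCOR2 at -2.48 ± 0.14, and KDM1A itself was at 0.08 ± 0.06 without a call (edgeR quasi-likelihood, adjusted p = 0.218). In MRPL45-KO cells 1 of these genes rose and 3 fell, and in CYC1-KO and UQCRFS1-KO cells 1 rose and 4 fell. Against A673 with DMSO, 57.8% of all tested genes were called in MRPL45-KO cells (28.9% higher and 29.0% lower). In CYC1-KO cells it was 37.6% (21.4% and 16.2%) and in UQCRFS1-KO cells 30.8% (15.8% and 15.0%). At or above 5 CPM the shares were 76.1% (31.6% and 44.4%), 53.8% (33.1% and 20.7%) and 47.8% (23.9% and 23.9%) in that order. The further activated genes had 9 higher and 12 lower in MRPL45-KO, 13 and 9 in CYC1-KO and 10 and 5 in UQCRFS1-KO cells. The repressed genes had 12 higher and 1 lower in MRPL45-KO cells (median 1.77), 7 and 2 in CYC1-KO cells (0.34) and 2 and 6 in UQCRFS1-KO cells (-0.16).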

How the data were processed

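Poly(A) RNA of 16 libraries was sequenced from 4 lines with 2 treatments and 2 replicates. The deposited tables hold raw read counts per gene, as the authors made them: 10 tables with 39249 genes, in which 24 repeated columns were identical and were used once. Per the submitters' processing notes, the tools named are STAR 2.5.2b, Trim Galore, DESeq2, FastQC and MultiQC, with no role given for any, and the build is hg19. For the counter, the annotation and the strand setting, nothing is given in the sources used here. Rows without a gene symbol (2.405% to 8.588% of a library's counts) were kept in the scaling, the fit and the background shares, under the same low-count filter. Library totals were 24873597 to 56171036 counts.

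Genes kept by filterByExpr (21633) were fitted over all 16 libraries with 8 group means in edgeR 4.0.16 (TMM factors, robust quasi-likelihood F-test, 8 residual degrees of freedom, two-sided), with Benjamini-Hochberg adjustment over all of them and calls at an adjusted p under 0.05. The fit was tested on simulated data. CPM values are counts scaled by TMM-adjusted totals, and the per-kilobase scale uses the joined length of all GENCODE 29 exons of a gene. Sequences are from RefSeq (GRCh38.p14). MYC was set aside from the promoter windows by choice, so the 26 genes used may be fewer than those that matched. The 35116 windows of all genes were not reduced in this way. The 31 genes, their roles and the further lists were chosen with earlier results of these data known. Genes with a called log2 fold change of at least 1 in any comparison are given by library. Where no error is named, ± is the SE of the fit. Alternatives were other scaling factors, low-count filters, only the groups compared, DESeq2's Wald test, a replicate block and each library left out. Some markers of other cell types are not reported here.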

Additional observations from a re-analysis of the deposited data

Results flagged for a closer look

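Responses to SP-2509 that differ between a knockout line and A673 by the test of the difference itself in the same edgeR quasi-likelihood fit (Benjamini-Hochberg adjusted p under 0.05) are listed as values, as log2 fold change in the knockout line minus that in A673. With groups of 2 libraries no search for single outlying libraries was made.

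In the MRPL45 knockout line the difference was negative for CCK (-1.27), PAPPA (-0.86), MYC (-0.85), KDSR (-0.81), BCL11B (-0.78), PAX7 (-0.74), SOX2 (-0.72), ID2 (-0.68), FCGRT (-0.65), SOX6 (-0.64), EZH2 (-0.53), CAV1 (-0.53), STEAP1 (-0.48), NR0B1 (-0.45) and NKX2-2 (-0.38). It was positive there for PPP1R1A (0.83), UGT3A2 (0.71), TERT (0.70), ITM2A (0.61), GSTM4 (0.43), PRKCB (0.39), STEAP2 (0.32), JAK1 (0.30) and IL1RAP (0.23). Among these differences the call was lost under 6 alternatives for IL1RAP, 3 for TERT and 2 for NKX2-2.

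In the CYC1 knockout line the difference was negative for CCK (-0.96), PAPPA (-0.94), SOX6 (-0.74), FCGRT (-0.68), MYC (-0.67), KDSR (-0.60), PAX7 (-0.57), NKX2-2 (-0.46), NR0B1 (-0.46), EZH2 (-0.45), BCL11B (-0.40), CAV1 (-0.37), STEAP1 (-0.28) and NPY1R (-0.28). It was positive there for UGT3A2 (0.77), ITM2A (0.72), LIPI (0.50), PPP1R1A (0.39), RBM11 (0.38), GSTM4 (0.26) and STEAP2 (0.22). Among these differences the call was lost under 10 alternatives for GSTM4, 7 for STEAP1, 7 for STEAP2, 6 for NPY1R and 1 for BCL11B.

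In the UQCRFS1 knockout line the difference was negative for LOXHD1 (-1.21), NPY1R (-0.56), KDSR (-0.54), FCGRT (-0.43), SOX2 (-0.41), CCK (-0.36) and NKX2-2 (-0.34). It was positive there for GLI1 (0.74), ITM2A (0.66), CCND1 (0.61), LIPI (0.59) and RBM11 (0.36). Among these differences the call was lost under 6 alternatives for NKX2-2, 6 for SOX2, 5 for RBM11, 4 for CCK and 1 for FCGRT.
For LOXHD1 in the UQCRFS1 knockout line and ITM2A in the CYC1 knockout line the called responses have opposite signs to those in A673, and the ITM2A response was lost under 8 alternatives. In the other listed cases the responses differ in size, or at least 1 of them did not pass the test on its own.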

How the results depend on the processing

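Of the 204 calls among 310 tests (31 genes in 10 comparisons), 165 stood under every alternative tried and 39 were lost under at least 1. The number of genes called moved by over 1.5 times in 2 comparisons: for the response of the CYC1 knockout line it was 14 without CYC1 DMSO replicate 1 and 14 without CYC1 SP-2509 replicate 1, against 22, and for the response difference of the UQCRFS1 knockout line it was 7 without UQCRFS1 DMSO replicate 2, against 12. In the latter comparison the split of higher and lower was 4 and 3 without that library and 5 and 4 without UQCRFS1 SP-2509 replicate 2, against 5 and 7. With 1 library left out, the counts ran from 25 to 25 for the response in A673, 6 to 9 in the MRPL45, 14 to 17 in the CYC1 and 26 to 29 in the UQCRFS1 knockout line. They ran from 20 to 23, 18 to 21 and 17 to 19 for the 3 lines against A673 with DMSO, and from 22 to 24, 17 to 23 and 7 to 11 for the 3 response differences, in the order MRPL45, CYC1, UQCRFS1. In these fits the lone library of a group is assumed to vary like the others. With upper-quartile factors the A673 responses of IL1RAP and CCND1 turned to -0.14 and -0.17 and passed the test there, while both were without a call otherwise; NPY1R also gained a call in A673 with these factors (-0.23) and with the filter of 1 CPM in 2 libraries (-0.18). The cause was not tested. Same-numbered libraries shared only a number in the labels; the correlation of their deviations from the group means over 10597 genes was 0.151 to 0.651. With the replicate block the responses gave 26, 10, 22 and 29 calls, the line comparisons 23, 23 and 20 and the response differences 26, 22 and 13, with no call lost and 10 gained. TERT, the least abundant gene, had the widest errors.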
